A study of Mus musculus with 10 samples.

Results

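The 32 genes described here act in G2 and mitosis, the last stages of the cell cycle. They were chosen by name from the functions known for them, and all 32 had a row among the 28165 genes of the count table. They were measured by bulk mRNA sequencing in smooth muscle cells of the mouse embryonic aorta at embryonic day 15.5, in 5 libraries from Eln+/+ and 5 from Eln-/- embryos. Both genotypes came from intercrosses of mice with 1 inactive Eln copy and carried a green fluorescent reporter driven by Acta2, the smooth muscle actin gene, and were untreated. After enzymatic digestion of the aorta, living cells with the reporter signal and without CD31, an endothelial surface protein, were collected by flow cytometry, so Acta2 promoter activity defines the cells. The labels name neither the mutant Eln allele nor how many embryos went into each library, and do not say that replicates came from different embryos. The p-values therefore cover only the variation among the libraries, some of which may be technical.

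A dividing cell copies its chromosomes in S phase, checks them in G2 and separates them in mitosis. Entry into mitosis is driven by the kinase Cdk1 bound to cyclins A and B, whose transcripts rise late in the cycle together with those of spindle, kinetochore and cytokinesis proteins and fall once the cell has divided. Smooth muscle cells of the embryonic aorta still divide while they build the elastic layers of the wall, and mice that lack elastin are known for an excess of smooth muscle cells that narrows the vessel. In bulk RNA a lower level of a mitotic transcript can mean fewer cells in G2 and mitosis or less transcript in each, and the measurement cannot tell these apart.

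The promoters of these genes share sequence elements that the choice by name did not use. In textbook accounts, TTTGAA or its variant form TTCGAA makes up the cell cycle genes homology region, bound by the MuvB complexes that hold G2 genes off in resting cells and switch them on in G2, and CCAAT is bound by the factor NF-Y. RefSeq windows from 250 bases before to 50 bases after a start site (GRCm38.p6) were matched for 29 of the 32 genes, taking the start nearest the 5′ end in the count table. That start was 629, 2394 and 3867 bases from the 5′ end for Cdca3, Cdca8 and Kif2c. On either strand, TTTGAA was found in 21 of the 29 windows (72.4%), against 17.9% of all 32851 RefSeq windows, and TTCGAA in 3 (10.3%), against 1.56%. At least 1 CCAAT was found in 21 (72.4%), against 37.4% of all windows, and 2 or more in 16 (55.2%), against 11.7%. Both kinds of element were found in 18 (62.1%), against 7.52% of all windows. The first kind began within 50 bases of the start site in 20 of the 29, but the same was not counted over all RefSeq windows, so this count has no background. Birc5, Nuf2, Nusap1 and Tacc3 had neither in the window. These are matches of letters, not measured sites of binding.

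The 150 bases before the start site are shown for 6 genes whose levels carry the results below, with both forms of the first element, CCAAT and their reverse complements in capitals. Cdk1 (chr10:69352913-69353062, minus strand), Cdc20 (chr4:118437344-118437493, minus strand), Top2a (chr11:99024190-99024339, minus strand), Ube2c (chr2:164769779-164769928, plus strand) and Mki67 (chr7:135716380-135716529, minus strand) held both kinds, and Birc5 (chr11:117849087-117849236, plus strand) held none.
Cdk1: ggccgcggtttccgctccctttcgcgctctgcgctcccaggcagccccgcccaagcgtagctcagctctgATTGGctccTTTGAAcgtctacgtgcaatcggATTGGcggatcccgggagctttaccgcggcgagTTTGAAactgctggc
Cdc20: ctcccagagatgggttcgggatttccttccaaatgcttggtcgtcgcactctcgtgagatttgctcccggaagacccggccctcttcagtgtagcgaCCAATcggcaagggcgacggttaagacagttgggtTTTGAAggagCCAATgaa
Top2a: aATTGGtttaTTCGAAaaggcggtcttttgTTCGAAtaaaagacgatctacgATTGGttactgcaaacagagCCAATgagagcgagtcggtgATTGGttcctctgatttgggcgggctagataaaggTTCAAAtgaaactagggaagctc
Ube2c: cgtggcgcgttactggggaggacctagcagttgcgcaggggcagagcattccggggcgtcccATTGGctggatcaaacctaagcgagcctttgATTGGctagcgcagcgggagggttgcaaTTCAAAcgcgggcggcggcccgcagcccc
Mki67: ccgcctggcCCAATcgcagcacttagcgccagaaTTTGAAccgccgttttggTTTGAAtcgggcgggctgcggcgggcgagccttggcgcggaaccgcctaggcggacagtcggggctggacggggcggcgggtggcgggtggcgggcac
Birc5: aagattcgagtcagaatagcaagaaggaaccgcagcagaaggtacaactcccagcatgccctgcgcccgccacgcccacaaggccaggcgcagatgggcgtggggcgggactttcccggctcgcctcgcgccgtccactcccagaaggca
Cdk1 had TTTGAA at positions -71 and -15 from the start site and Cdc20 at -18, while Ube2c had its reverse complement at -29 and Top2a at -23. In Ube2c, CCAAT at -186 and its reverse complement at -183, outside the stretch shown, overlap each other.

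Total counts were 26951681 to 63866346 per library. A count of 3, the limit that a count of 0 allows (counting error only), corresponds to 0.0344 to 0.218 CPM by library, where CPM is the count scaled to a common library size with TMM factors. Eln itself had 2409 to 105866 counts in Eln+/+ libraries and 0 to 36 in Eln-/- libraries, and the log2 fold change of Eln was -12.19 (SE 1.64, edgeR adjusted p = 0.152), the smallest p of all genes. Smooth muscle markers (Acta2, Tagln, Cnn1, Myh11, Myl9 and Tpm2) summed to 1056 to 3829 CPM, endothelial markers to 0.528 to 47.1 CPM and leukocyte markers to 1.20 to 16.6 CPM, while fibroblast markers such as Dcn and Lum summed to 487 to 4007 CPM and cardiomyocyte markers, led by Myl7 and Actc1, to 8.10 to 936 CPM. In Eln+/+ replicate 1 and Eln-/- replicates 4 and 5, 15089 to 15925 genes had a count, against 18157 to 22951 in the other 7 libraries. Those 3 libraries, from both genotypes, are called sparse below. Eln-/- replicate 1 and Eln+/+ replicate 2 had the most genes, 22951 and 21864.

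Between the genotypes, none of the 32 genes passed the test. The edgeR quasi-likelihood test called 0 of them at an adjusted p under 0.05, as it did among all 15718 genes tested, where it called 0 (0%). Eln itself, at a log2 fold change of -12.19, did not pass either (edgeR adjusted p = 0.152), so 0 calls do not show equal levels. At an unadjusted p under 0.05 there were 0 of the 32 genes and 81 of all genes (0.515%), and the smallest unadjusted p of the 32 was 0.159, for Cdk1. In none of the 32 did the libraries of the genotypes stay apart without overlap, against 48 of all genes (0.305%). The log2 fold change (Eln-/- minus Eln+/+) was positive in 22 of 32 and negative in 10, with a median of 0.054, against 51.5% positive and a median of 0.021 over all genes tested. Single genes lay between -0.62 (Bub1) and 1.62 (Mki67), with standard errors (SE) of 0.43 to 1.93. The mean log2 CPM of the 32 genes was 1.66, 5.51, 4.05, 4.79 and 3.38 in the Eln+/+ libraries and 5.86, 4.82, 3.52, 1.43 and 2.35 in the Eln-/- libraries, listed here and below in the order of replicates 1 to 5. Each genotype thus ran from sparse libraries with low values to 1 library above 5.5.

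**Figure D1:**
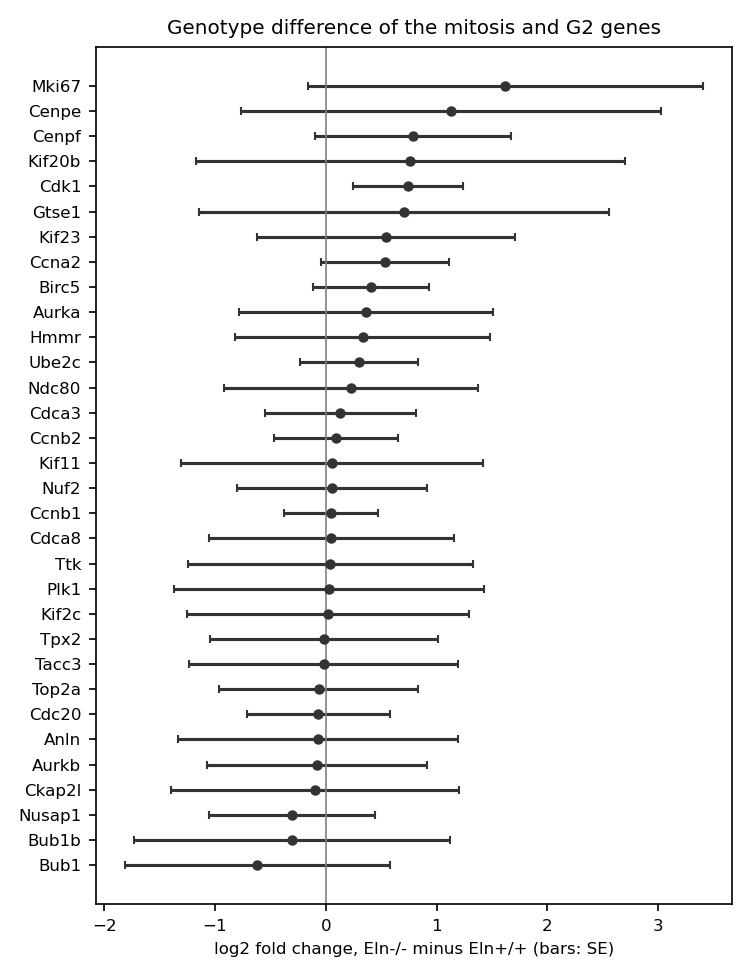
The log2 fold change of each of the 32 genes (horizontal axis, Eln-/- minus Eln+/+) is plotted as a point with its SE as the bar, for 5 libraries in each genotype. Values run from -0.62 for Bub1 to 1.62 for Mki67, and none passed the edgeR threshold.

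How many genes lay above 0 turned on single libraries. Without Eln-/- replicate 1 only 8 of the 32 fold changes were positive and the median was -0.44, without Eln+/+ replicate 2 there were 31 and the median was 0.45, and without Eln+/+ replicate 1 there were 12 and the median was -0.15. Without the 3 sparse libraries 30 of 32 were positive, all but Bub1 and Bub1b, with a median of 0.37. Over all genes tested, the median in these fits was -0.13, 0.076, -0.021 and 0.036, in the same order. The share of all genes above 0 was not counted in them. None of these fits called any of the 32 genes, and 0 had an unadjusted p under 0.05.

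The 3 cyclins and their kinase all had positive log2 fold changes (median 0.31), with SEs of 0.43 to 0.58. Ccnb1 and Ccnb2 encode B-type cyclins, the partners of Cdk1 in mitosis. Ccnb1 (chromosome 13, 100778650 to 100786570, minus strand, mm10) was at 76.4, 138, 132, 137 and 145 CPM in the Eln+/+ libraries and 115, 185, 155, 46.7 and 149 CPM in the Eln-/- libraries. Outside Eln+/+ replicate 1 and Eln-/- replicate 4 all its values lay between 115 and 185 CPM, and the genotypes overlapped. Its means were 126 ± 28.0 CPM for Eln+/+ against 130.1 ± 52.7 CPM for Eln-/- (SD, n = 5 each), with a log2 fold change of 0.050 (SE 0.43). Ccnb2 was at 17.4, 72.2, 97.2, 90.7 and 85.0 CPM in the Eln+/+ libraries and 80.9, 109.7, 87.3, 17.9 and 89.9 CPM in the Eln-/- libraries, low in the same 2 libraries, with a log2 fold change of 0.089 (SE 0.56). Ccna2, cyclin A2, which acts in S phase and G2, was at 14.1, 88.8, 55.6, 131 and 89.9 CPM in the Eln+/+ libraries and 80.1, 165, 124, 38.7 and 141 CPM in the Eln-/- libraries. Its log2 fold change was 0.53 (SE 0.58), and reads in the exons it shares with Exosc9 on the other strand cannot be assigned with certainty.

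Cdk1 ran against its cyclins in Eln+/+ replicate 1 and Eln-/- replicate 4. It was at 240.4, 125, 83.6, 150.04 and 109 CPM in the Eln+/+ libraries and 93.2, 158, 194, 441 and 299 CPM in the Eln-/- libraries. The 3 sparse libraries were its 3 highest, in both genotypes, and 2 of these were the lowest for Ccnb1 and Ccnb2. Its means were 142 ± 60.2 CPM for Eln+/+ against 237 ± 136 CPM for Eln-/- (SD, n = 5 each). The log2 fold change of 0.74 (SE 0.49, unadjusted p = 0.159, adjusted p = 1.00 by edgeR) was 0.36 without the sparse libraries.

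**Figure D2:**
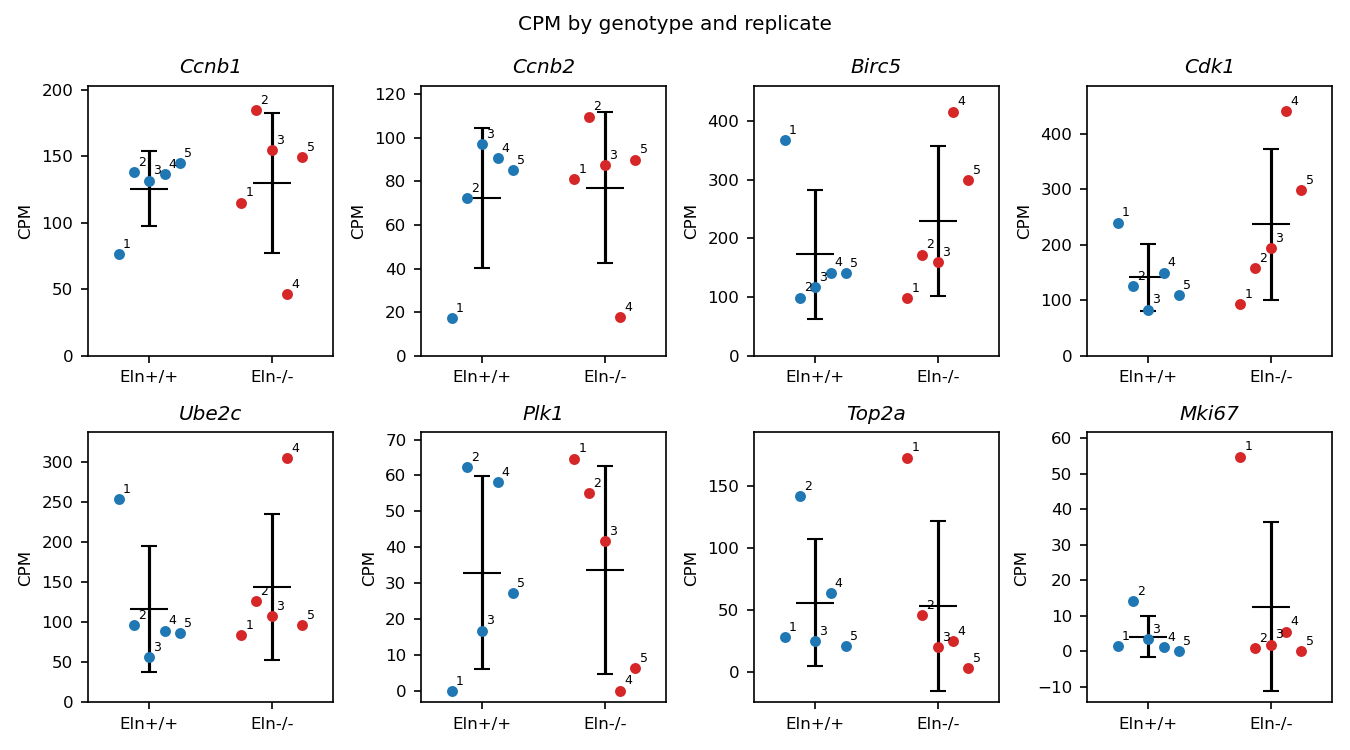
Each point is the CPM of 1 library, numbered by replicate, for 8 genes (vertical axes, CPM) in Eln+/+ (blue) and Eln-/- (red), with the mean and SD (n = 5) in black. Replicate 1 of Eln+/+ and replicate 4 of Eln-/- are high for Birc5, Cdk1 and Ube2c and low for Ccnb1, Ccnb2 and Plk1, while Top2a and Mki67 are highest in Eln-/- replicate 1.

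Of the 9 mitotic kinases and their partners 5 had positive and 4 negative log2 fold changes, with a median of 0.030. Plk1, the kinase that drives spindle assembly and exit, was at 0, 62.3, 16.8, 58.2 and 27.2 CPM in the Eln+/+ libraries and 64.6, 55.1, 41.7, 0.0726 and 6.29 CPM in the Eln-/- libraries. It was nearly absent from Eln+/+ replicate 1 and Eln-/- replicate 4, at 0 and 1 counts, and its means were 32.9 ± 26.8 CPM for Eln+/+ against 33.6 ± 29.0 CPM for Eln-/- (SD, n = 5 each, log2 fold change 0.030, SE 1.40). Aurka, the centrosome kinase, was at 0.331, 64.0, 19.0, 68.8 and 44.0 CPM in the Eln+/+ libraries and 54.7, 74.8, 66.1, 0.290 and 56.7 CPM in the Eln-/- libraries. Its log2 fold change was 0.37 (SE 1.15), and it too was under 1 CPM in those 2 libraries. Tpx2, which activates Aurka on the spindle, reached 94.4 CPM in Eln-/- replicate 1 and 58.6 CPM in Eln+/+ replicate 2, with 2.38 to 52.1 CPM elsewhere (log2 fold change -0.018, SE 1.03).

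Aurkb, Birc5 (survivin) and Cdca8 (borealin) encode parts of 1 complex, the chromosomal passenger complex, which corrects faulty attachments. Aurkb was at 0.0661, 74.2, 43.1, 54.6 and 38.8 CPM in the Eln+/+ libraries and 55.4, 59.5, 52.5, 12.2 and 20.1 CPM in the Eln-/- libraries. Cdca8 followed it closely, with 0 counts in Eln+/+ replicate 1 and 10.7 to 71.6 CPM in the others. Birc5 did the reverse and was at 367, 99.2, 117, 142 and 141 CPM in the Eln+/+ libraries and 98.4, 172, 159.9, 416 and 299 CPM in the Eln-/- libraries. All 3 sparse libraries, at 299 to 416 CPM, stood above the other 7, at 98.4 to 172 CPM. The log2 fold changes were -0.078 for Aurkb (SE 1.00), 0.049 for Cdca8 (SE 1.10) and 0.40 for Birc5 (SE 0.52).

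Bub1, Bub1b and Ttk are kinases or kinase-like proteins of the spindle checkpoint, which delays anaphase until every chromosome is attached. Bub1 was at 7.21, 33.3, 20.98, 17.1 and 18.5 CPM in the Eln+/+ libraries and 39.7, 18.02, 2.17, 0 and 3.28 CPM in the Eln-/- libraries. It had the lowest fold change of the 32, -0.62 (SE 1.20), which was -1.73 without Eln-/- replicate 1 and -0.14 without the sparse libraries, and passed in neither. Bub1b was at 0, 53.1, 16.3, 29.6 and 7.62 CPM in the Eln+/+ libraries and 47.3, 27.4, 3.81, 0.0726 and 7.46 CPM in the Eln-/- libraries, with a log2 fold change of -0.31 (SE 1.43), and 0.37 without Eln+/+ replicate 2. Ttk stayed between 0.0377 and 19.8 CPM (log2 fold change 0.040, SE 1.29).

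Exit from mitosis needs Cdc20, which activates the anaphase-promoting complex, and Ube2c, the enzyme that supplies it with ubiquitin. Cdc20 was at 18.7, 94.1, 52.0, 97.7 and 81.8 CPM in the Eln+/+ libraries and 93.9, 121, 74.6, 12.8 and 26.2 CPM in the Eln-/- libraries. It was lowest in the 3 sparse libraries, at 12.8 to 26.2 CPM against 52.0 to 121 CPM in the others, and the genotypes overlapped (log2 fold change -0.067, SE 0.64). Ube2c was at 255, 96.8, 56.6, 89.7 and 86.9 CPM in the Eln+/+ libraries and 83.9, 126, 108, 305 and 96.8 CPM in the Eln-/- libraries. Eln+/+ replicate 1 and Eln-/- replicate 4 held its highest values, and the third sparse library, Eln-/- replicate 5, was within the range of the rest. Its log2 fold change was 0.30 (SE 0.53). Exons of Cdc20 overlap Elovl1 and those of Ube2c overlap Tnnc2, each on the other strand, and the strand setting of the counts is unknown.

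The 4 kinetochore genes all had positive log2 fold changes (median 0.51), none past the test. At the kinetochore, where chromosomes meet the spindle, Ndc80 and Nuf2 form 1 rod-shaped complex that binds microtubules, and Cenpe and Cenpf are large proteins that join in mitosis. Nuf2 was at 0.290 to 41.4 CPM and Ndc80 at 0.226 to 29.9 CPM, with log2 fold changes of 0.054 (SE 0.86) and 0.23 (SE 1.15). Cenpe, a motor of chromosome alignment, was at 0.132, 10.0, 3.41, 2.52 and 0.0446 CPM in the Eln+/+ libraries and 31.0, 2.30, 0, 2.11 and 0 CPM in the Eln-/- libraries. Eln-/- replicate 1 and Eln+/+ replicate 2 were its 2 highest libraries, and the log2 fold change of 1.13 (SE 1.90) became -1.56 without the first of these. Cenpf was at 12.7, 10.1, 4.53, 2.31 and 2.99 CPM in the Eln+/+ libraries and 30.2, 4.38, 1.47, 10.4 and 9.72 CPM in the Eln-/- libraries. It differed from Cenpe in the sparse libraries, where it kept 9.72 to 12.7 CPM, and its log2 fold change of 0.78 (SE 0.88) became -0.014 without Eln-/- replicate 1.

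Of the 10 motors and spindle proteins 6 had positive and 4 negative log2 fold changes, with a median of 0.036. Kif11 is the kinesin that pushes the spindle poles apart. It was at 3.50, 72.0, 14.9, 18.6 and 7.33 CPM in the Eln+/+ libraries and 88.5, 22.4, 0.426, 9.37 and 0.0754 CPM in the Eln-/- libraries. Its values in Eln+/+ replicate 2 and Eln-/- replicate 1 were more than 3 times those of any other library, and the log2 fold change was 0.054 (SE 1.36), -1.53 without Eln-/- replicate 1 and 1.13 without Eln+/+ replicate 2. Kif23 and Anln act in the cleavage furrow, Kif20b in cytokinesis and Kif2c in correcting attachments, while Hmmr and Ckap2l are spindle proteins. Kif23, Kif20b, Kif2c, Anln, Hmmr, Ckap2l and Gtse1 were also highest in those 2 libraries, which lie in different genotypes. Their log2 fold changes were 0.54, 0.76, 0.018, -0.074, 0.33, -0.10 and 0.71 in that order. Gtse1, which restrains p53 in G2, had 0 counts in 3 libraries. Nusap1, which bundles microtubules, was at 11.6, 82.4, 53.7, 46.6 and 11.8 CPM in the Eln+/+ libraries and 56.6, 48.7, 42.3, 4.79 and 14.5 CPM in the Eln-/- libraries (log2 fold change -0.30, SE 0.75), and 0.11 without Eln+/+ replicate 2. Tacc3, which stabilises spindle fibres, was at 62.5 to 106 CPM in 8 libraries, at 1.52 CPM in Eln+/+ replicate 1 and at 0 counts in Eln-/- replicate 4 (log2 fold change -0.020, SE 1.22).

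Top2a, the enzyme that untangles sister chromosomes, was at 28.5, 142, 25.001, 64.0 and 20.8 CPM in the Eln+/+ libraries and 173, 46.2, 20.0, 25.1 and 3.35 CPM in the Eln-/- libraries. It was 142 and 173 CPM in Eln+/+ replicate 2 and Eln-/- replicate 1 and at most 64.0 CPM elsewhere. The means were 56.0 ± 51.0 CPM for Eln+/+ against 53.5 ± 68.5 CPM for Eln-/- (SD, n = 5 each), and the log2 fold change was -0.066 (SE 0.90), -1.25 without Eln-/- replicate 1. Mki67, whose protein Ki-67 coats mitotic chromosomes and is the usual stain for dividing cells, was at 1.52, 14.2, 3.51, 1.27 and 0 CPM in the Eln+/+ libraries and 54.8, 0.839, 1.94, 5.59 and 0 CPM in the Eln-/- libraries. Its log2 fold change of 1.62 (SE 1.78) was the highest of the 32 and rested on the 54.8 CPM of Eln-/- replicate 1, being -0.99 without it. Cdca3, which helps to remove an inhibitor of mitotic entry, was even, at 34.5 to 55.3 CPM outside the sparse libraries (log2 fold change 0.13, SE 0.68).

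Per kilobase of exon, the genes fell into a wide order. Averaged over the 10 libraries, Birc5 was highest at 59.1 CPM per kb, then Ccnb1 at 51.4, Ube2c at 50.2, Ccnb2 at 48.9, Cdk1 at 42.4 and Cdc20 at 37.5 CPM per kb. These 6 neighbours were not separated by their spread over libraries, since Birc5 alone ran from 28.9 to 122 CPM per kb and Ccnb1 from 18.8 to 74.2. Their order rests in part on the sparse libraries. The mean there was 272%, 236% and 250.4% of that in the other 7 for Birc5, Ube2c and Cdk1. For Ccnb1, Ccnb2 and Cdc20 it was 63.2%, 46.9% and 21.9%. At the other end Kif20b, Mki67, Cenpf and Cenpe had 0.955, 0.831, 0.798 and 0.652 CPM per kb. The exon length, from the union of GENCODE exons, ran from 1531 bases for Ccnb2 to 11130 bases for Cenpf, and those 4 low genes are the 4 longest. A union of exons can be longer than the main transcript, so the scale is approximate.

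The level of a gene in the 2 libraries with the most detected genes went with its length. In Eln+/+ replicate 2 and Eln-/- replicate 1, 19 of the 32 genes (59.4%) were both above all other 8 libraries, against 14.7% of all genes tested. The mean of these 2 libraries over the mean of the 5 that were neither sparse nor these was 22.8 for Mki67, 22.9 for Kif20b, 12.4 for Cenpe and 6.43 for Cenpf. The same ratio was 0.815 for Ccnb2, 0.842 for Ccnb1, 0.862 for Cdca3 and 0.675 for Birc5, so the short cyclins were no higher there. In the 10 shortest genes the median ratio was 1.09 (0.815 to 2.00), and in the 10 longest 5.57 (0.786 to 22.9), with Cdk1 as the lowest of the long ones. Across the 32 genes Spearman's rho between exon length and this ratio was 0.64, and across 15315 genes with a length it was 0.61. Genes are not independent replicates, and the libraries were set apart by a count that includes these genes. The grouping by length was made after the values were seen.

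**Figure D3:**
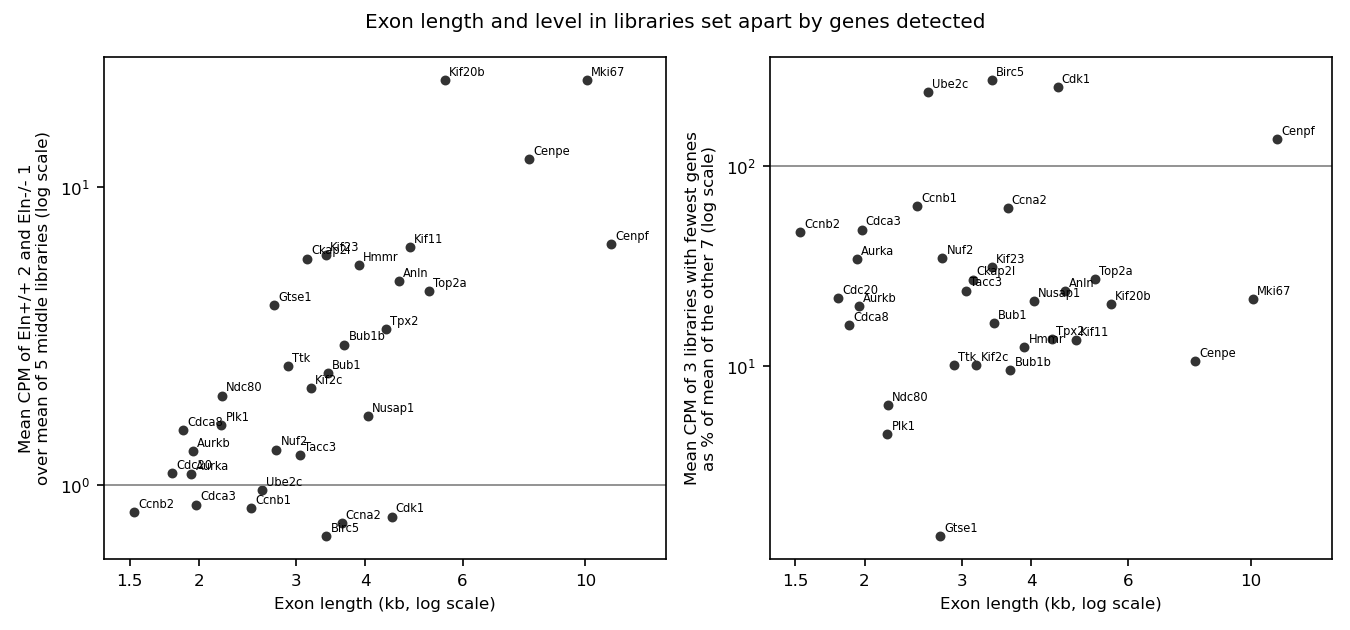
Each point is 1 of the 32 genes, with exon length in kb on a log scale. The left panel plots the ratio of mean CPM in the 2 libraries with the most genes to that in the 5 middle libraries, which rises to 22.9 for Kif20b, and the right panel plots the mean of the 3 sparse libraries as a percent of the other 7, where Birc5, Cdk1, Ube2c and Cenpf lie above 100%.

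In the 3 sparse libraries the gene group split in a different way. Birc5, Cdk1 and Ube2c had a mean CPM there of 272%, 250.4% and 236% of that in the other 7, and Cenpf of 137%. The other 28 genes had lower means there, 26 of the 32 under 50% and 19 under 25%. The share of all genes under these limits was not counted, so the counts have no background. The median log2 ratio of the sparse to the other libraries was -2.17 over the 32 genes and -0.79 over all genes with a length. The mean over the 3 did not hold for each of them. In Eln-/- replicate 5 several genes lay within the range of the other 7 libraries, among them Aurka (56.7 CPM), Ccnb2 (89.9 CPM), Cdca3 (43.1 CPM) and Ube2c (96.8 CPM). Of 15 values at 0 counts among all 320, 11 were in these libraries, and 8 to 11 of the 32 genes had under 10 counts in each, against 0 to 3 in the other 7. For 9 genes (28.1%) all 3 sparse libraries lay below the other 7 (Plk1, Aurkb, Cdca8, Ttk, Cdc20, Ndc80, Kif2c, Hmmr and Tacc3), against 21.5% of all genes tested, a share near the background. For 2 genes, Cdk1 and Birc5 (6.25%), they lay above, against 16.0%. Birc5, Cdk1 and Ube2c, chosen after their values were seen, made up 76.5%, 83.2% and 50.1% of the summed CPM of the 32 genes in Eln+/+ replicate 1, Eln-/- replicate 4 and Eln-/- replicate 5, and 13.0% to 33.5% in the others. The summed CPM itself, 1126 to 1396 in the sparse libraries, lay inside the 1094 to 2118 of the others. Spearman's rho between exon length and the ratio of sparse to other libraries was 0.0062 across the 32 genes and -0.49 across all genes with a length, so length did not order these genes there as it ordered all genes.

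Markers of red blood cells moved with part of this. Their sum over 9 markers, mostly the globins Hbb-bs and Hba-a2, was 18912 CPM in Eln+/+ replicate 1 and 5162 CPM in Eln-/- replicate 4, 619 CPM in Eln-/- replicate 5 and 22.3 to 1361 CPM in the other 7. By genotype it was 331 to 18912 CPM in Eln+/+ and 22.3 to 5162 CPM in Eln-/-. No marker of the list was at 0 in all libraries, but the embryonic globin Hbb-bh1 was at 0 counts in 9. Their part in the result was not tested. Glial markers, led by Fabp7, summed to 58.3 and 45.9 CPM in the first 2 of these libraries, 3.24 CPM in Eln-/- replicate 5 and 2.87 to 14.3 CPM in the rest, and their part was not tested either. Fibroblast markers had a lower sum in all 3, at 1197, 487 and 727 CPM in Eln+/+ replicate 1, Eln-/- replicate 4 and Eln-/- replicate 5. The sum was 1482 to 4007 CPM in the other 7. Of these markers Dpt was not lower there, at 630, 297 and 203 CPM in the same order, against 144 to 446 CPM in the other 7. Cardiomyocyte markers were at 575 and 536 CPM in Eln+/+ replicate 1 and Eln-/- replicate 4, 936 CPM in Eln+/+ replicate 2, 867 CPM in Eln-/- replicate 2 and 8.10 to 209.8 CPM in the rest. The part of these 2 sets in the results was not tested.

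**Figure D4:**
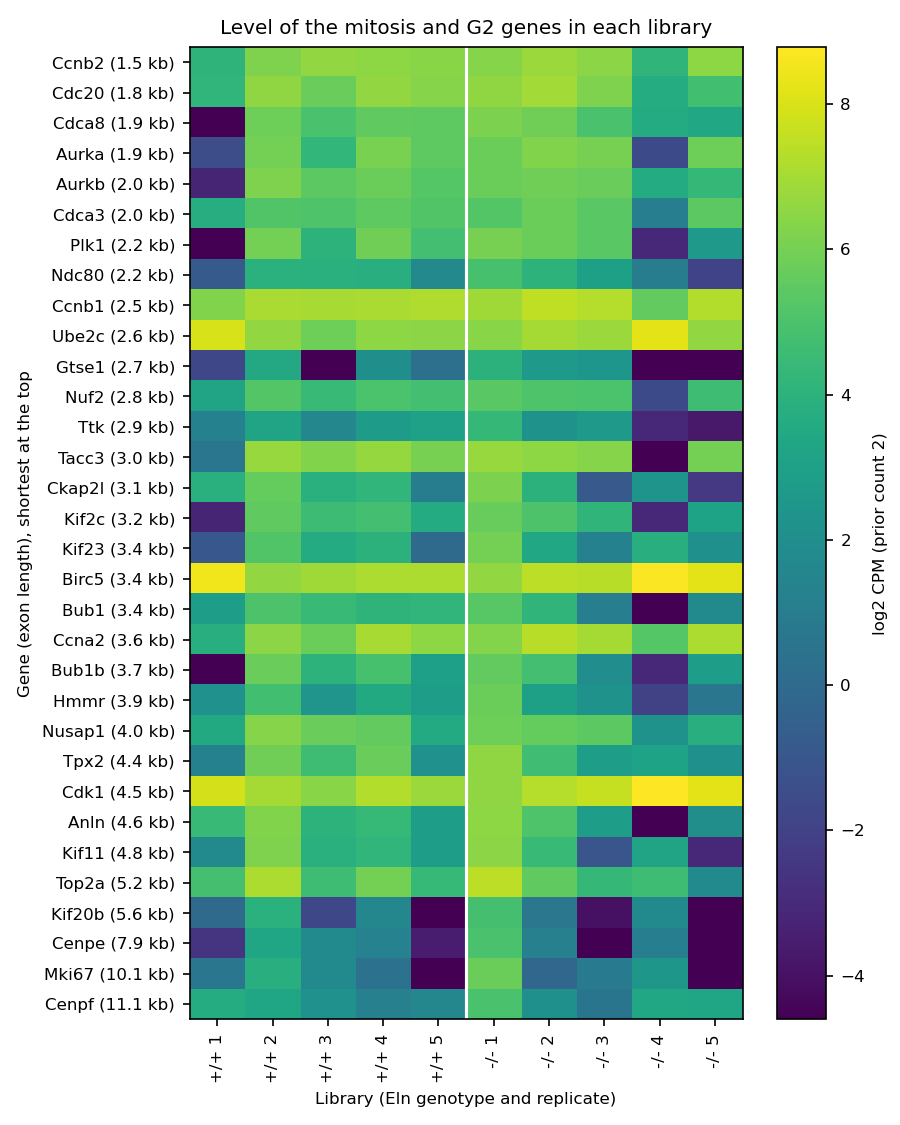
Colour gives log2 CPM (prior count 2) of the 32 genes (rows, ordered by exon length, shortest at the top) in the 10 libraries (columns, genotype and replicate). The columns +/+ 1, -/- 4 and -/- 5 hold 13, 12 and 14 genes over 10 CPM, against 17 to 32 in the others, and the lowest rows are brightest in -/- 1.

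Over the 10 libraries the genes varied together in part. The median Pearson's r of log2 CPM over the 496 pairs was 0.44, against 0.083 over all pairs of genes tested, and single pairs ran from -0.90 to 0.99, with 127 pairs below 0. All genes of a library share its depth, so these values are descriptions. Relative to the mean of each library's own genotype the median was 0.44 as well, and without the sparse libraries it was 0.49 over 7, against -0.011 for all genes. The closest pair was Aurkb and Cdca8, parts of 1 complex (r = 0.99, and 0.54 over the 7 libraries). Bub1b and Kif2c kept 0.98 and 0.89, Bub1 and Bub1b 0.69 and 0.84, and Mki67 and Top2a 0.79 and 0.75, in the same order. Some other close pairs did not hold over the 7 libraries. Ccnb2 and Aurka fell from 0.97 to -0.14, Tacc3 and Cdca3 from 0.98 to 0.28, and Nuf2 and Cdca3 from 0.98 to 0.31.

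Known partners were not always alike. Birc5 had r = -0.69 with Aurkb and -0.69 with Cdca8, which became -0.26 and -0.38 over the 7 libraries. Cdk1 had r = -0.58 with Ccnb1 and -0.64 with Ccnb2 over 10 libraries but 0.68 and 0.18 over 7, and Cdc20 with Ube2c went from -0.70 to 0.82. Ndc80 and Nuf2, which bind each other directly, reached only 0.39 and 0.48. Against the mean of the other 31 genes, Cdc20 (r = 0.90), Nusap1 (0.89), Bub1b (0.88) and Tpx2 (0.88) were closest, and Birc5 (-0.92), Cdk1 (-0.79) and Ube2c (-0.69) ran the other way. Over the 7 libraries Kif20b (0.99), Anln (0.98), Kif2c (0.97) and Top2a (0.97) were closest, while Birc5 (-0.62), Ccnb1 (-0.38), Ccnb2 (-0.32), Cdk1 (-0.23) and Ccna2 (-0.025) were below 0 and Cdca3 (0.075) and Ube2c (0.097) near it.

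**Figure D5:**
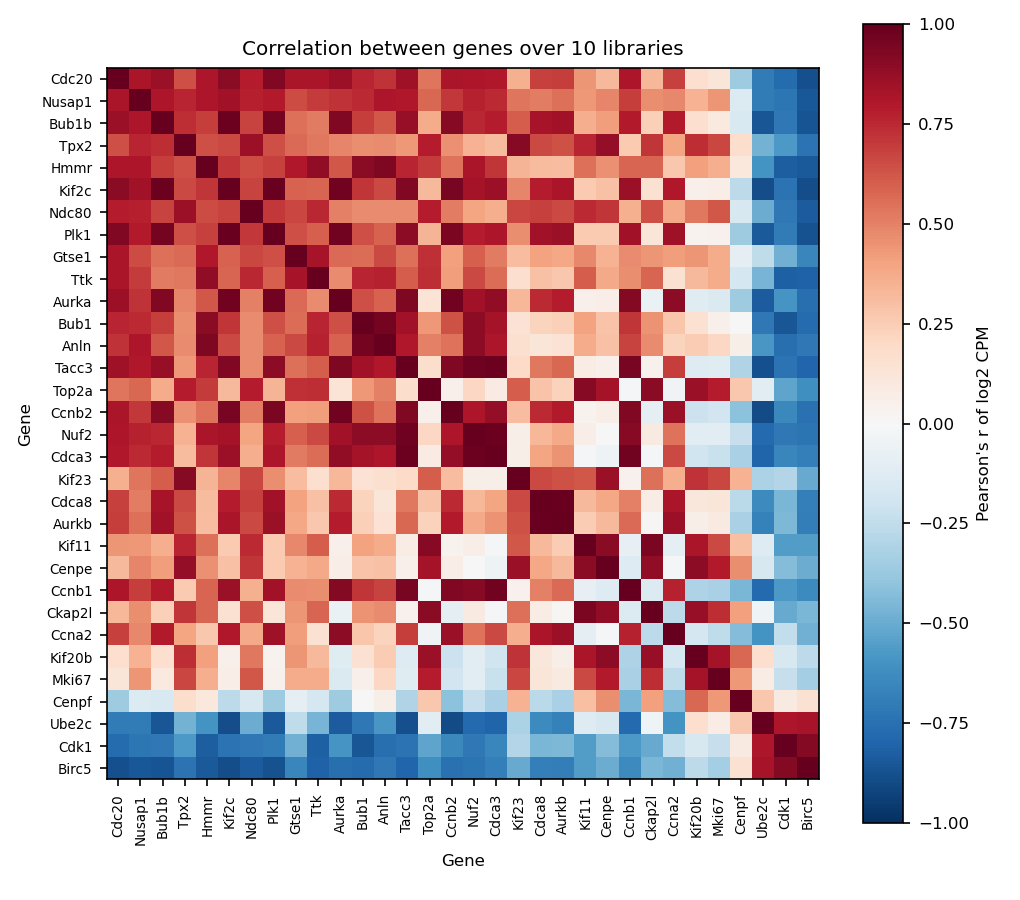
Colour gives Pearson's r of log2 CPM over the 10 libraries for each pair of the 32 genes, ordered by r with the mean of the other genes. Birc5, Cdk1 and Ube2c form a block of their own at the lower right, negative with most others (lowest r -0.90, Ccnb2 with Ube2c).

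The genes outside the group that followed its mean most closely lay outside the cell cycle lists. Candidates were the 6361 other genes whose average log2 CPM reached 4, and the 10 with the highest r over the 10 libraries, at 0.97 to 0.99, included Cavin1, Ctnna1, Col1a1, Flna, Plk2, Emilin1, Dpysl3, Fstl1 and Snd1. None of the 10 was in the 9 lists of other cell cycle genes, which supplied 93 of the 6361 candidates (1.46%), 2 of the top 100 and 11 of the top 500. An r above 0.9 was reached by 282 candidates, 3 of them in those lists, so a close match to the mean was not particular to cell cycle genes. Over the 7 libraries Flna, an actin crosslinker, had r = 0.99 and Col1a1, a collagen chain, 0.94. The median r with the mean was 0.61 for the 93 cell cycle genes and 0.49 for all candidates.

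The rest of the cell cycle program gave no call either. Of 150 further genes in 9 lists, 148 were tested, 84 with positive and 64 with negative fold changes, a median of 0.054, and 0 past the threshold. An unadjusted p under 0.05 was reached by 2 of the 148, against the 0.515% of all genes given above. Both are inhibitors of proliferation. Btg1, an antiproliferative gene, was at 354, 193, 81.7, 89.8 and 175 CPM in the Eln+/+ libraries and 607, 337, 287, 488 and 433 CPM in the Eln-/- libraries (log2 fold change 1.27, SE 0.49, unadjusted p = 0.0250, edgeR adjusted p = 1.00). Ccng2, an unusual cyclin of resting cells, was at 45.0, 32.4, 24.3, 15.4 and 29.3 CPM in the Eln+/+ libraries and 31.3, 55.3, 57.6, 53.0 and 96.0 CPM in the Eln-/- libraries (log2 fold change 1.00, SE 0.45, unadjusted p = 0.0469, edgeR adjusted p = 1.00). In both the genotypes overlapped, and Ccng2 was highest in sparse Eln-/- replicate 5. Of the 12 inhibitors tested 8 were positive and 4 negative.

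Regulators of the G2 program, 12 tested, had 7 positive and 5 negative fold changes. Foxm1, the transcription factor that switches on G2 genes with MuvB, was at 0, 2.20, 0.0203, 0.0317 and 0.0223 CPM in the Eln+/+ libraries and 14.1, 1.81, 5.07, 5.30 and 0.188 CPM in the Eln-/- libraries. In Eln+/+ it was above 0.1 CPM in replicate 2 only, and the genotypes overlapped (log2 fold change 3.51, SE 1.75, unadjusted p = 0.0687, edgeR adjusted p = 1.00). Genes of mitotic entry had 9 of 14 positive, checkpoint and kinetochore genes 18 of 24, anaphase genes 6 of 13, spindle and cytokinesis genes 16 of 27, and condensin, cohesin and chromatin genes 6 of 14. Cenpa, the histone that marks centromeres, was at 437, 113, 129, 179 and 228 CPM in the Eln+/+ libraries and 93.1, 186, 218, 869 and 543 CPM in the Eln-/- libraries. It shared the pattern of Birc5 and Cdk1, with 437 to 869 CPM in the 3 sparse libraries against 93.1 to 228 CPM in the other 7, and Ube2s and Cenpw also lay higher in all 3, at 29.4 to 51.4 against 2.69 to 15.3 CPM and 91.5 to 314.5 against 18.3 to 42.8 CPM. S phase genes had 8 of 20 positive, with a median of -0.092, and Rrm1, a subunit of ribonucleotide reductase, was at 14.7 to 35.7 CPM in the sparse libraries and 83.1 to 270.3 CPM in the others. G1 cyclins and kinases had 6 of 12 positive.

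The other genes with the smallest p of their lists did not pass either. Tubb4b, a spindle tubulin, had means of 174 ± 55.2 CPM for Eln+/+ against 294 ± 119 CPM for Eln-/- (SD, n = 5 each, log2 fold change 0.75, SE 0.43). Smc4, a condensin subunit, had 8.60 ± 7.83 CPM for Eln+/+ against 26.2 ± 34.2 CPM for Eln-/-, and Chek1, the DNA damage kinase that holds cells in G2, had 12.3 ± 8.16 CPM for Eln+/+ against 22.03 ± 11.3 CPM for Eln-/-. Cdc27, a subunit of the anaphase-promoting complex, had a log2 fold change of -1.11 (SE 0.90) and the repressor E2f4 one of 2.00 (SE 1.31). Log2 fold changes were 2.66 for the kinesin Kif18b, 0.45 for the Cdk1 inhibitor Wee1, 0.83 for the cohesin Smc1a, 0.42 for the replication factor Gins2, 0.85 for E2f3 and -0.39 for cyclin D2 (Ccnd2). Kif18b (SE 1.90) was low, with means of 0.345 CPM for Eln+/+ and 2.24 CPM for Eln-/-, and was at 0 in several libraries. Smc1a and Smc4 were highest in Eln-/- replicate 1, at 97.8 and 85.2 CPM. In the other Eln-/- libraries they were at 1.58 to 12.3 and 4.94 to 26.6 CPM.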

How the data were processed

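There were 10 libraries of mRNA from sorted aortic smooth muscle cells, 5 from each genotype. The authors deposited 1 table of estimated counts per gene, with no scaling between libraries. Columns were assigned through the sample names that the labels give, and none was left over. STAR and DESeq2 with build mm10 are named in the submitters' processing notes, without versions. The counting program, the annotation and strandedness were not given in the sources used here. Values were not whole in 23.5% to 48.8% of genes per library (tolerance 1e-06) and were rounded. After subtracting 1 from the table's end, 27046 of 28165 gene spans (96.0%) matched GENCODE mouse release 21 (GRCm38), whose basic exons gave lengths and overlaps. Exons of 7 of the 32 genes overlap another gene (Ccna2, Plk1, Cdc20, Ube2c, Nusap1, Tacc3 and Ckap2l).

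Genes were kept by edgeR's filterByExpr (15718, all 32 included), scaled with TMM and tested with edgeR's quasi-likelihood test (two-sided, genotype the only term, Benjamini-Hochberg over all genes, threshold 0.05). The SE is the log2 fold change divided by the square root of F. Log2 CPM used a prior count of 2, and the biological coefficient of variation was 1.16. Versions were edgeR 4.0.16 and DESeq2 1.42.0, with limma 3.58.1, under R 4.3.3. The fit was also run on simulated counts, and the outcome is not reported here. Members, lists and named genes were chosen with earlier results of these data known: all 32 are named, with values per library for 17 of central function and for those with the 3 highest and 3 lowest fold changes and the 3 smallest p. In other lists, genes are named from the 2 smallest p, and those among the 10 most alike by r, of which 1 is not reported here. H2afx, Cdkn2a and the marker Foxd3 were not analysed here. Alternatives were another scaling, no filter, other tests, a replicate block and libraries left out.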

Additional observations from a re-analysis of the deposited data

Results flagged for a closer look

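In 18 of the 64 sets of 5 libraries (32 genes in 2 genotypes), 1 library lay far from the other 4, its gap to the nearest taking more than 0.71 of the whole range. Chance alone marks about 1 in 20 such sets where values follow a normal distribution. CPM values need not follow one, so the rate for these sets is not known, and the genes are not independent. The same was not counted over all genes tested, so the 18 sets have no background and describe single libraries only. Eln-/- replicate 1 was the high library for Tpx2 (94.4 CPM, next 26.0 CPM), Cenpe (31.0 CPM, next 2.30 CPM), Kif11 (88.5 CPM, next 22.4 CPM), Kif23 (63.8 CPM, next 14.2 CPM), Kif20b (28.7 CPM, next 3.27 CPM), Hmmr (54.4 CPM, next 7.90 CPM), Ckap2l (71.5 CPM, next 16.1 CPM), Top2a (173 CPM, next 46.2 CPM), Mki67 (54.8 CPM, next 5.59 CPM). Eln+/+ replicate 2 was the high library for Kif11 (72.0 CPM, next 18.6 CPM), Kif20b (15.5 CPM, next 2.95 CPM), Anln (77.2 CPM, next 21.9 CPM), Mki67 (14.2 CPM, next 3.51 CPM). Eln+/+ replicate 1 was high for Birc5 (367 CPM, next 142 CPM) and Ube2c (255 CPM, next 96.8 CPM) and low for Ccnb1 (76.4 CPM, next 132 CPM). Eln-/- replicate 4 was high for Ube2c (305 CPM, next 126 CPM) and low for Aurka (0.290 CPM, next 54.7 CPM).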

How the results depend on the processing

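No setting called any of the 32 genes or of the further cell cycle genes, and no scaling, filter or left-out library gave any of the 32 without overlap. The smallest adjusted p of the 32 in any of the 19 alternatives was 0.86 (limma-voom with sample quality weights). DESeq2 gave no adjusted p for 2 of them. Over all genes, calls were 6 with DESeq2, 2 with limma-voom, 7 with sample quality weights, 1 without Eln+/+ replicate 2 and Eln-/- replicate 1 together, and 0 to 1 with 1 library left out. Genes without overlap numbered 77 to 231 with 1 library left out, 662 without the 3 sparse libraries and 207 without Eln+/+ replicate 2 and Eln-/- replicate 1, where fewer libraries are compared. The median log2 fold change of the 32 ran from -0.44 to 0.45, and the median pairwise r from 0.30 to 0.53.

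The replicate block, with the replicate number as a term, gave a median of -0.27 and 0 calls. Same-numbered libraries did not consistently deviate together (r of -0.56, 0.51, 0.12, -0.38 and 0.092 for numbers 1 to 5), and 1 of 5 Eln+/+ libraries correlated best with its own. The labels give no pairing, and this check cannot tell whether same-numbered libraries were prepared together. Fold changes that turned sign, none past the threshold, were as follows. With the replicate block they were Ccnb1 -0.031, Plk1 -0.30, Aurkb 0.028, Cdca8 -0.15, Ttk -1.61, Ndc80 -0.91, Nuf2 -0.20, Cenpe -1.63, Kif11 -2.29, Kif20b -0.85, Kif2c -0.45, Hmmr -1.33, Gtse1 -0.70 and Cdca3 -0.025. With limma-voom they were Ccnb1 -0.023, Aurkb 0.43, Ttk -2.01, Ndc80 -0.25, Nuf2 -0.30, Cenpe -0.99, Kif11 -1.88, Kif20b -0.14, Kif2c -0.068, Hmmr -0.97 and Cdca3 -0.039. With sample quality weights they were Aurkb 0.13, Ttk -0.49, Cdc20 0.16, Cenpe -1.32, Kif11 -1.06, Kif23 -0.41, Kif20b -0.84, Nusap1 0.082, Hmmr -0.55 and Anln 0.093. Without the sparse libraries they were Tpx2 0.30, Aurkb 0.10, Cdc20 0.27, Nusap1 0.036, Tacc3 0.13, Ckap2l 0.49, Anln 0.55 and Top2a 0.36. Without Eln+/+ replicate 2 and Eln-/- replicate 1 they were Aurkb 0.079, Cdca8 -0.11, Ttk -0.93, Ndc80 -0.28, Cenpe -0.48, Kif11 -0.45, Kif2c -0.10 and Hmmr -0.98. DESeq2's test and its size factors both gave Tpx2 0.0044, and library totals gave Anln 0.040. Leaving out 1 library at a time, 27 genes crossed 0, over ranges of Anln -1.32 to 0.72, Aurkb -0.39 to 0.23, Bub1b -1.14 to 0.37, Ccnb1 -0.11 to 0.27, Ccnb2 -0.15 to 0.35, Cdc20 -0.41 to 0.20, Cdca3 -0.080 to 0.44, Cdca8 -0.35 to 0.29, Cenpe -1.56 to 2.21, Cenpf -0.014 to 1.18, Ckap2l -1.88 to 0.57, Gtse1 -0.23 to 1.96, Hmmr -1.60 to 0.96, Kif11 -1.53 to 1.13, Kif20b -1.72 to 2.68, Kif23 -0.75 to 1.37, Kif2c -0.56 to 0.48, Mki67 -0.99 to 3.01, Ndc80 -0.53 to 0.54, Nuf2 -0.16 to 0.38, Nusap1 -0.58 to 0.11, Plk1 -0.35 to 0.40, Tacc3 -0.33 to 0.31, Top2a -1.25 to 0.64, Tpx2 -1.31 to 0.43, Ttk -1.14 to 0.36, Ube2c -0.17 to 0.82. The cause was not tested.

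A count of 0 allows up to 0.0344 to 0.218 CPM by library. Cenpe, Mki67, Kif20b and Gtse1 had 0 counts in 2 or 3 libraries each, and Gtse1, for example, was at 0 in Eln+/+ replicate 3, where that limit is 0.0609 CPM, and at 4.21 CPM in Eln+/+ replicate 4.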

Other observations

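Within each library, the relation of length to level set the libraries in an order that did not follow genotype. Across the 15315 genes with a length, Spearman's rho between exon length and the deviation of log2 CPM from the gene's mean over libraries was -0.35, 0.58, 0.15, 0.38 and 0.040 in the Eln+/+ libraries and 0.63, 0.36, 0.042, -0.27 and -0.42 in the Eln-/- libraries, in replicate order. Across the 32 mitosis and G2 genes the same quantity was 0.43, 0.40, 0.022, -0.12 and -0.66 in Eln+/+ and 0.45, -0.37, -0.67, 0.39 and -0.33 in Eln-/-. In the summed CPM of the 10 shortest and the 10 longest of the 32, the ratio of short to long was lowest in Eln-/- replicate 4 (0.806) and Eln-/- replicate 1 (0.928) and highest in Eln+/+ replicate 5 (3.60). Cdk1 made up 441 of the 510 CPM of the long group in Eln-/- replicate 4, against 93.2 of 741 CPM in Eln-/- replicate 1. It was also most of that group in Eln-/- replicates 5 (299 of 335 CPM) and 3 (194 of 275 CPM). The same held in Eln+/+ replicates 1 (240.4 of 324 CPM) and 5 (109 of 164 CPM). Genes are not independent replicates, and these values are descriptions.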
